A study of Mus musculus with 12 samples.

Results

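The non-classical MHC class I genes described here are H2-Q4, H2-Q6, H2-Q7, H2-T22, H2-T23 and H2-M3, 6 of the 55401 genes in the table. They belong to the H2-Q, H2-T and H2-M families and were selected on earlier results of these same libraries. Their own differences between hosts are therefore given as a description with standard errors, and counts of calls among them stand beside those of all genes with nothing read from them. Gene identifiers were paired with symbols through GENCODE M21, and all 6 symbols matched 1 row each. The RNA came from MLL-AF9 leukemia cells, mouse bone marrow progenitors transduced with the MLL-AF9 fusion oncogene together with GFP and passed through many mice in series. These cells were transplanted into female C57BL/6 mice (WT) and female Rag2-/- mice on the C57BL/6J background, which lack mature T and B cells. Female NSG mice, which are of NOD origin and lack T, B and NK cells, were the other host. GFP+ cells were sorted from the bone marrow, and 4 libraries were made for each of the 3 hosts, labelled as biological replicates. The mice in the study were 8 to 12 weeks old, and none of the 3 groups received a further treatment. All groups carry the same retroviral leukemia, so the genotype of a group is that of the host and not of the sorted cells.

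Classical class I molecules show peptides to cytotoxic T cells and are made by almost every nucleated cell. Non-classical class I molecules share their fold but vary little between individuals, and several of them are seen by NK cells or by T cells of unusual specificity. H2-Q6 and H2-Q7 encode Qa-2, a molecule anchored in the membrane by a lipid. H2-T23 encodes Qa-1b, which carries a peptide cut from the signal sequence of classical class I molecules and is the ligand of the CD94/NKG2A receptor, an inhibitory receptor of NK cells. H2-T22 is recognised by a subset of gamma delta T cells, and H2-M3 presents peptides that begin with N-formyl methionine, as bacterial and mitochondrial proteins do. H2-Q4 encodes Qb-1, a less studied molecule of the Q region. Class I promoters are known to hold, close to each other, a site for NF-kB and a site for interferon regulatory factors (IRF).

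The authors deposited TPM (transcripts per 1000000, read counts scaled by gene length to a common total), so that levels can be compared between genes. Depths, read off the steps between low values, came to an estimated 8.02 to 21.4 in units of 1000000 reads per library and carry no interval. The 6 genes had an estimated 50 (H2-Q6) to 2131 (H2-T23) reads per library. Of the 7 markers of myeloid leukemia cells examined, all were above 0 in every library, with Hoxa9 between 192 and 234 TPM. Mpo was at 508 to 593 TPM in WT, 70.1 to 287 in Rag2-/- and 219 to 710 in NSG libraries. Of the other cell types, Cd3e was listed at 0 in all 12 libraries, as was Ms4a1. The summed level of 8 T and NK cell markers was 0.268 to 0.922 TPM in WT, 1.97 to 4.95 in Rag2-/- and 0.0914 to 2.26 in NSG libraries. The sum of 4 B cell markers, almost all of it Ighm, was 174 to 214, 136 to 209 and 124 to 216 TPM. That of 6 macrophage and dendritic cell markers was 88.2 to 93.8, 95.7 to 108 and 53.8 to 110 TPM, most of it Adgre1 and Vcam1. Within it, C1qa was at 0 to 3.66 TPM in WT, 4.53 to 10.3 in Rag2-/- and 0.346 to 2.90 in NSG libraries. C1qb was at 0.99 to 4.47, 5.43 to 12.2 and 1.16 to 2.08 TPM, in the same order. The sum of 4 erythroid markers stayed at or under 7.40 TPM. The sum of 5 mature neutrophil markers was 44.0 to 76.6 TPM in WT, 68.3 to 100 in NSG and 243 to 967 in Rag2-/- libraries, which stood apart. In sorted bulk samples, fewer cells of a type and less RNA per cell cannot be told apart.

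All 6 genes lie on chromosome 17 (GRCm38), in the MHC. H2-Q4 (35379617 to 35385290), H2-Q6 (35424850 to 35430055) and H2-Q7 (35439155 to 35443773) follow each other on the plus strand. H2-T23 (36029773 to 36032855) and H2-T22 (36037128 to 36042747) are neighbours on the minus strand, and H2-M3 (37270220 to 37274484) lies farther along on the plus strand. Their promoters, the 250 bases before the start site in RefSeq (GRCm38.p6), were searched on both strands for the letters AANNGAAA (IRF) and CCAAT, and for NF-kB letters that run GGG, NNTTN and CC. Over all 32851 promoters of that length, 21.3% held the IRF letters, 4.11% the NF-kB letters and 33.8% CCAAT. The stretches that hold the IRF and NF-kB letters are shown for the 6 genes, because their make-up divides the members into groups, and for H2-K1, a classical class I gene, and H2-Q10, a further gene of the Q region, as references. Each is written 5′ to 3′ along the gene, and the capitals mark the IRF and NF-kB matches:
H2-Q4 (chr17:35379431-35379483, plus strand): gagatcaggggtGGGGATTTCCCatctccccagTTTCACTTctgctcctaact
H2-Q6 (chr17:35424665-35424717, plus strand): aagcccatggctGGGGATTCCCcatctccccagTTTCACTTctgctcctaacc
H2-Q7 (chr17:35439010-35439061, plus strand): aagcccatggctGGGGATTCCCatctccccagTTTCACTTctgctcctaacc
H2-T22 (chr17:36042914-36042945, minus strand): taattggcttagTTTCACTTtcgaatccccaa
H2-T23 (chr17:36032763-36032837, minus strand): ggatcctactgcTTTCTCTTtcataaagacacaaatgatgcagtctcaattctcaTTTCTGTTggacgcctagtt
H2-M3 (chr17:37270121-37270152, plus strand): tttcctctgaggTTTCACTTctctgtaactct
H2-K1 (chr17:34000418-34000470, minus strand): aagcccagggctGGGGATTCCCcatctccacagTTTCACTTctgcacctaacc
H2-Q10 (chr17:35469922-35469953, plus strand): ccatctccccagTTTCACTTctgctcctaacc

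The 3 Q members held the NF-kB and IRF letters side by side, in nearly the same stretch as H2-K1. In H2-Q4 the NF-kB letters matched at 2 positions that overlap in all but 1 base. H2-T22 and H2-M3 held the same 8 IRF letters as the Q members but no NF-kB match in these 250 bases. H2-T23 differed from the other 5 members in its letters, with 2 IRF matches that are both unlike the match the others share, and no NF-kB match. All 6 promoters held CCAAT on either strand. H2-Q10 held the shared IRF letters and the flanking bases of H2-Q6, but neither an NF-kB nor a CCAAT match. The RefSeq start of H2-T23 lies inside the gene as GENCODE gives it, so the H2-T23 stretch falls within the annotated gene, unlike the other 7, and the bases before the GENCODE start were searched only in part. These matches are letters in a window and not sites shown to be bound.

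Because the genes are paralogs, reads from one can fit another, and the study's text does not say how such reads were counted. All transcripts of GENCODE M21 were cut into overlapping stretches of 50 and of 100 bases, and each stretch of a gene was looked up in all other genes. H2-M3 was nearly free of shared sequence, with 0.576% of its stretches of 50 bases and 0% of those of 100 bases found elsewhere. H2-T23 shared 14.5% at 50 bases and 3.15% at 100. At 100 bases, H2-Q4 shared 14.1%, H2-Q6 13% and H2-Q7 12%, and at 50 bases 36.4%, 35% and 26.5%. Most of the share of H2-Q4 lay in Gm11131, which held 11.8% of its 100-base stretches, while 1.16% lay in H2-Q6. H2-Q6 and H2-Q7 shared most with genes of their own region: 8.36% of the 100-base stretches of H2-Q6 lay in H2-Q7, and 5.56%, 3.5% and 3.42% of those of H2-Q7 lay in H2-Q10, H2-Q5 and H2-Q6. H2-T22 shared the most, 53.5% at 50 bases and 31.5% at 100. Of its 100-base stretches, 24% lay in the overlapping transcript A930015D03Rik and 6.92% in H2-T10. The coding sequences of H2-Q6 and H2-Q7 were identical at 95.4% of 981 aligned bases, and those of H2-T22 and H2-T10 at 96.9% of 1137. The values of H2-Q4, H2-Q6, H2-Q7 and H2-T22 are therefore less certain as values of 1 gene than those of H2-M3 and H2-T23.

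**Figure D1:**
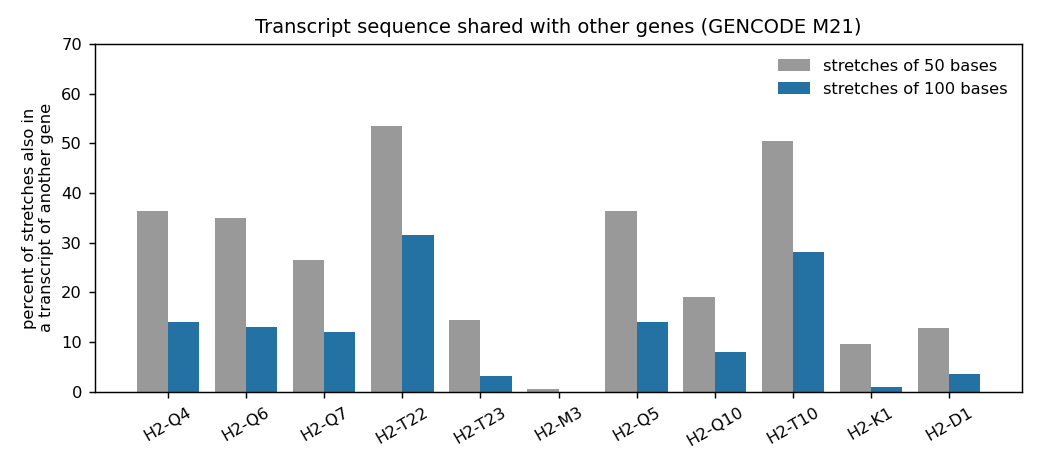
Percent of the stretches of 50 (grey bars) or 100 bases (blue bars) in each gene's annotated transcripts that also occur in a transcript of another gene. H2-M3 lies at or near 0, and H2-T22 is the highest of the 6 genes at 53.5% and 31.5%.

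In cells from WT mice, H2-T23 was the most abundant of the 6 genes, at 138 ± 8.73 TPM (SD, n = 4). H2-Q4 followed at 88.1 ± 7.69, H2-T22 at 55.3 ± 6.04, H2-M3 at 35.8 ± 3.43, H2-Q6 at 19.5 ± 7.51 and H2-Q7 at 13.2 ± 4.41 TPM. Each of the first 4 genes lay above the next in every WT library without overlap of their ranges, whereas the ranges of H2-Q6 and H2-Q7 overlapped. In cells from Rag2-/- mice the order of the means was the same, from 112 ± 9.44 TPM for H2-T23 down to 10.5 ± 4.61 for H2-Q7. There the ranges of H2-Q4 and H2-T22 overlapped slightly, and those of H2-Q6 and H2-Q7 overlapped. In cells from NSG mice, H2-Q4 (124 ± 28.6 TPM) and H2-T23 (123 ± 16.2) did not differ beyond their spread, nor did H2-Q6 (63.1 ± 35.7) and H2-T22 (62.6 ± 9.33), or H2-M3 (43.4 ± 4.58) and H2-Q7 (35.4 ± 17.3). Over the 12 libraries H2-Q6 ranged over 10.7-fold and H2-Q7 over 9.10-fold from the lowest to the highest, H2-Q4 over 2.79-fold, H2-T22 over 1.85-fold, H2-M3 over 1.74-fold and H2-T23 over 1.49-fold.

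**Figure D2:**
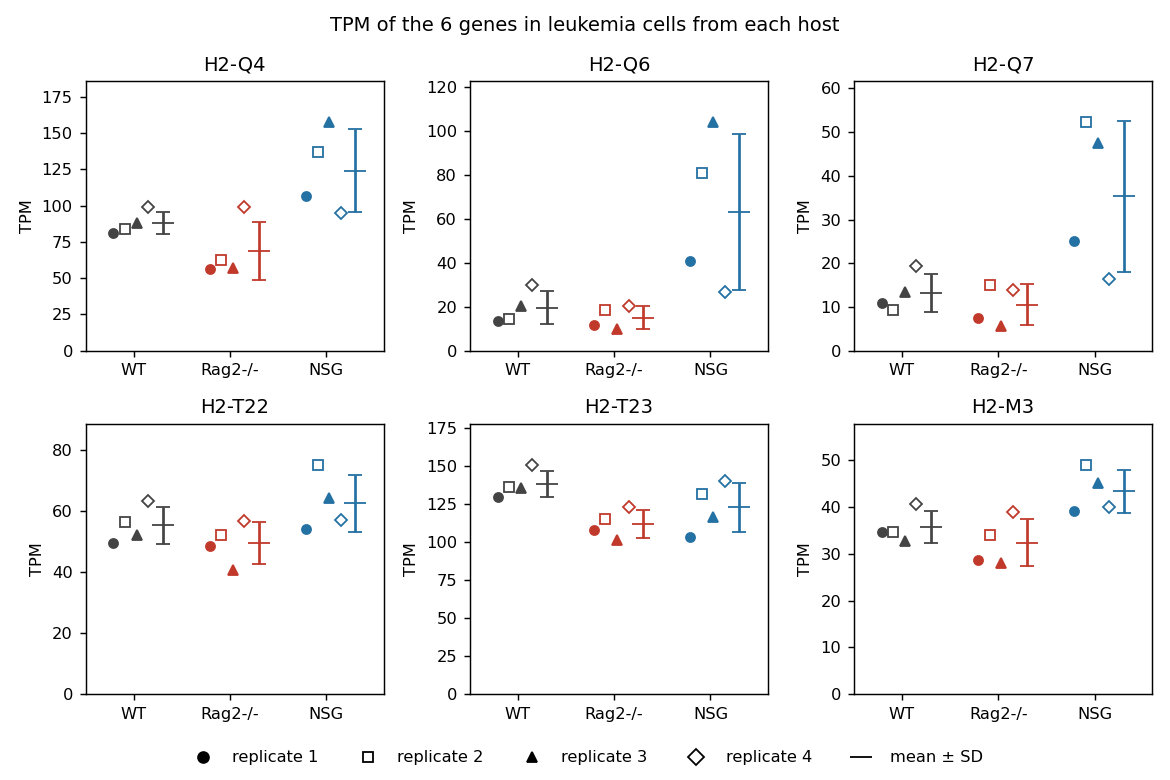
TPM of the 6 genes (vertical axes, each from 0) in the 12 libraries, by host; each point is a library, its shape gives the replicate number, and the bar beside it is the mean with its SD. H2-Q6 and H2-Q7 reach 104 and 52.3 TPM in NSG libraries and stay at or under 29.7 and 19.3 TPM in WT, while the H2-T23 values of the 4 Rag2-/- libraries all lie below those of the 4 WT libraries.

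The Qa-2 genes H2-Q6 and H2-Q7 differed most between the hosts, through high values in NSG libraries. H2-Q6 was at 13.4, 14.3, 20.4 and 29.7 TPM in WT replicates 1 to 4, at 11.8, 18.4, 9.70 and 20.3 TPM in Rag2-/- replicates, and at 41.0, 80.9, 104 and 26.6 TPM in NSG replicates. All 4 NSG libraries lay above all 4 Rag2-/- libraries, but NSG replicate 4 lay below the highest WT library. The log2 fold change of H2-Q6, taken on log2(TPM + 1), was 1.53 (SE 0.40) for NSG against WT, −1.86 (SE 0.40) for Rag2-/- against NSG and −0.34 (SE 0.40) for Rag2-/- against WT. H2-Q7 was at 10.9, 9.20, 13.4 and 19.3 TPM in WT, at 7.503, 15.1, 5.75 and 13.8 TPM in Rag2-/- and at 25.1, 52.3, 47.5 and 16.5 TPM in NSG libraries. Again NSG replicates 2 and 3 were the high libraries and NSG replicate 4 overlapped with WT. Its log2 fold changes were 1.26 (SE 0.38), −1.61 (SE 0.38) and −0.34 (SE 0.38), in the same order. H2-Q7 was below H2-Q6 in all 12 libraries, with ratios from 0.457 to 0.823. H2-Q8 and H2-Q9, further Qa-2 genes, had no row matched by symbol and were not analysed. The sum of H2-Q6 and H2-Q7 alone was 32.7 ± 11.9 TPM in WT, 25.6 ± 9.62 in Rag2-/- and 98.5 ± 52.1 in NSG libraries. Its log2 fold changes were 1.45, −1.81 and −0.35 (SE 0.39 each). The exons of H2-Q6 and H2-Q7 cover 2085 and 4265 bases, so this sum too depends on which gene a shared read was given to. For Rag2-/- against WT the small differences turned on which libraries were kept, and dropping any 1 of the 12 gave −0.49 to −0.12 for H2-Q6 and −0.54 to −0.12 for H2-Q7.

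H2-Q4 had a smaller difference in the same order of hosts. It was at 81.5, 84.1, 87.9 and 98.9 TPM in WT, at 56.6, 62.6, 56.98 and 98.9 TPM in Rag2-/- and at 107, 137, 158 and 94.9 TPM in NSG libraries. Rag2-/- replicate 4 stood at the level of the highest WT library and above NSG replicate 4, while the other 3 Rag2-/- libraries lay below all WT and NSG libraries. The log2 fold change was −0.39 (SE 0.18) for Rag2-/- against WT, −0.85 (SE 0.18) for Rag2-/- against NSG and 0.46 (SE 0.18) for NSG against WT.

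H2-T23, the gene of Qa-1b, showed another order, with WT the highest. It was at 130, 136, 136 and 150 TPM in WT, at 108, 115, 101 and 123 TPM in Rag2-/- and at 103, 131, 116 and 140 TPM in NSG libraries. The Rag2-/- libraries lay below the WT libraries without overlap, and the NSG libraries spanned both. The log2 fold change was −0.30 (SE 0.09) for Rag2-/- against WT, −0.13 (SE 0.09) for Rag2-/- against NSG and −0.18 (SE 0.09) for NSG against WT. These are RNA levels, and the study saw no strong expression of the Qa-1b molecule on MLL-AF9 cells. Qa-1b is known to present a peptide of 9 residues from the signal sequence of H2-D1, which codons 3 to 11 of that gene encode. Windows of 9 codons, among the first 30 of each coding sequence, were compared in 11 class I genes. The bases are given for H2-D1 and H2-Q10, the only 2 whose coding sequence held these residues unaltered. The coding sequence of H2-K1 begins too late for a window in register, so differing residues are not counted for the other genes. The capital marks the base at which H2-D1 and H2-Q10 differ:
H2-D1: gcgatggcTccgcgcacgctgctcctg
H2-Q10: gcgatggcGccgcgcacgctgctcctg
The summed level of H2-D1 and H2-Q10 was 1406 ± 69.0 TPM in WT, 1215 ± 128 in Rag2-/- and 1572 ± 292 in NSG libraries, most of it from H2-D1. The H2-Q10 part was 47.3 ± 5.70 TPM in WT, 95.3 ± 29.1 in Rag2-/- and 50.35 ± 14.5 in NSG libraries.

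H2-T22 and H2-M3 had the smallest ranges between hosts beside H2-T23. H2-T22 was at 49.5, 56.4, 52.1 and 63.3 TPM in WT, at 48.7, 52.1, 40.6 and 56.9 TPM in Rag2-/- and at 54.1, 75.0, 64.3 and 56.99 TPM in NSG libraries. The 3 hosts overlapped, and the log2 fold changes were −0.16, −0.33 and 0.17 (SE 0.12 each) for Rag2-/- against WT, Rag2-/- against NSG and NSG against WT. H2-M3, the gene with the least shared sequence, was at 34.8, 34.7, 32.8 and 40.7 TPM in WT, at 28.6, 34.0, 28.1 and 38.9 TPM in Rag2-/- and at 39.2, 48.9, 45.2 and 40.1 TPM in NSG libraries. All NSG libraries lay above all Rag2-/- libraries, the nearest at 39.2 and 38.9 TPM. The log2 fold changes of H2-M3 were −0.15, −0.42 and 0.27 (SE 0.11 each).

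All 6 genes had log2 fold changes below 0 in Rag2-/- against WT, from −0.39 to −0.15 with a median of −0.32, while the median of all 15026 genes tested was 0.02. Against NSG all 6 were below 0 as well, from −1.86 to −0.13 with a median of −0.63, beside 0.01 for all genes. The comparisons share the Rag2-/- libraries. In NSG against WT, 5 of the 6 were above 0 and H2-T23 was below, with a median of 0.37, beside 0.00 for all genes. In limma, with Benjamini-Hochberg adjustment over all genes and a limit of 0.5 on the log2 fold change, 0 of the 6 genes were called in each comparison. Among all genes 1.47% (221), 0.213% (32) and 0% (0) were called in Rag2-/- against WT, Rag2-/- against NSG and NSG against WT. At an unadjusted p under 0.05 the numbers were 1, 5 and 4 of the 6 genes and 3146, 1888 and 1377 of all genes. Because the 6 genes were chosen on these values, nothing is read from their counts. Without Rag2-/- replicate 4, the H2-Q4 log2 fold change was −1.04 (SE 0.15) against NSG and 1 of the 6 genes passed these limits, while the count over all genes in that comparison rose from 32 to 90. H2-T23 was the 1 gene of the 6 with all Rag2-/- libraries below all WT libraries, as were 6.72% of all genes tested. H2-Q6, H2-Q7 and H2-M3 had all Rag2-/- libraries below all NSG libraries, as were 2.25% of all genes. No member had the opposite pattern of Rag2-/- above WT (10.2% of all genes) or Rag2-/- above NSG (4.34%), and none parted NSG from WT in either direction (2.21% higher and 2.38% lower in NSG).

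**Figure D3:**
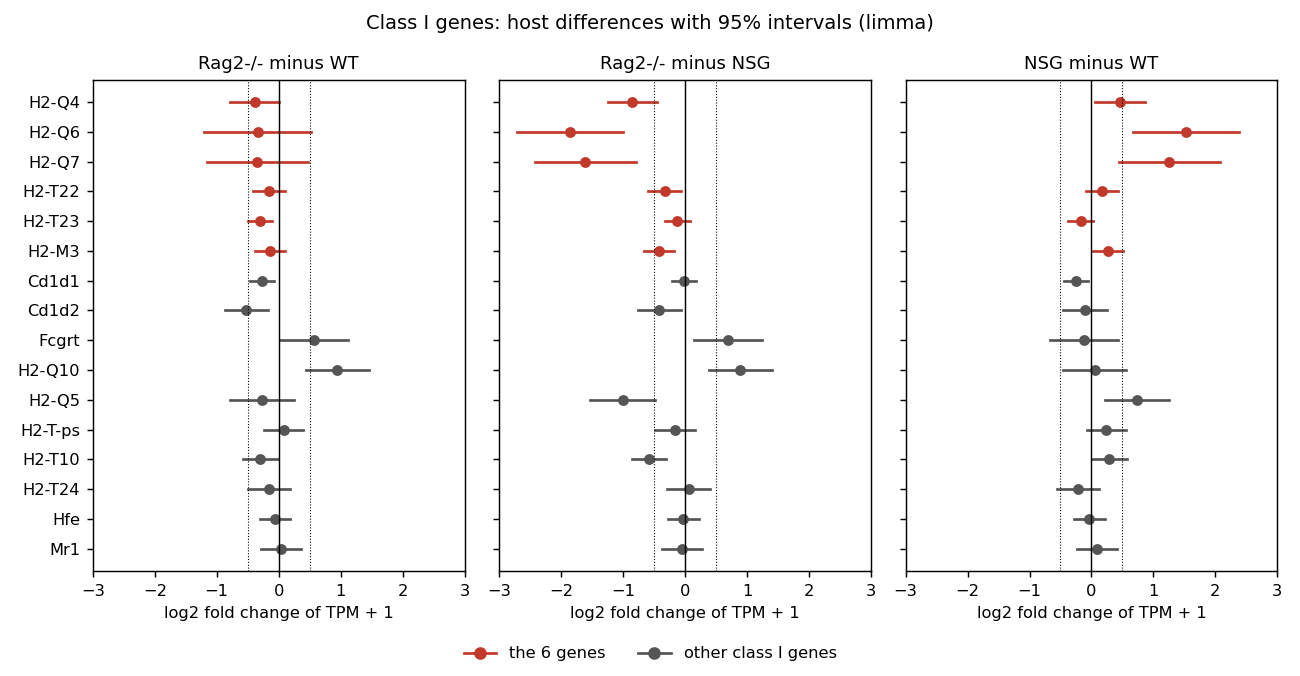
Log2 fold changes of TPM + 1 with 95% intervals from limma in the 3 comparisons, for the 6 genes (red) and the 10 other class I genes tested (grey); dotted lines mark 0.5 in both directions. H2-Q6 and H2-Q7 have the widest intervals, and H2-Q10 lies on the opposite side of 0 from the red points in both comparisons of Rag2-/- cells.

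The balance among the 6 genes differed in NSG replicates 1 to 3 from that in the other hosts. H2-Q6 and H2-Q7 made up 9.17% ± 2.36 (SD, n = 4) of the summed TPM of the 6 genes in WT, 8.69% ± 2.21 in Rag2-/- and 20.8% ± 7.57 in NSG libraries. H2-T23 made up 39.5% ± 1.53, 39.2% ± 3.10 and 28.0% ± 6.68, in the same order, and H2-Q4 25.2% ± 0.472, 23.6% ± 3.19 and 27.4% ± 2.04. The H2-Q6 and H2-Q7 share was 17.9%, 25.4% and 28.3% in NSG replicates 1 to 3, above all WT and Rag2-/- libraries, but 11.5% in NSG replicate 4, within the range of WT (7.01% to 12.2%). Between WT and Rag2-/- libraries these shares differed by less than their spread. The 6 genes together came to 350 ± 36.2 TPM in WT, 288 ± 48.2 in Rag2-/- and 451 ± 91.6 in NSG libraries, equal to 14.2% ± 0.754, 14.7% ± 0.762 and 16.3% ± 1.20 of the sum of the classical genes H2-K1 and H2-D1. Relative to H2-K1 in the same library, H2-Q7 stood at 11.99 ± 3.33 TPM per 1000 TPM of H2-K1 in WT, 12.2 ± 3.35 in Rag2-/- and 27.7 ± 10.3 in NSG libraries. Thus the level of H2-Q7 against H2-K1 did not differ beyond its spread between WT and Rag2-/- cells, and 3 of the 4 NSG libraries, at 23.8, 38.2 and 33.5, lay above the highest WT (16.2) and Rag2-/- (16.3) values.

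The members also moved together from library to library within a host. WT replicate 4 was the highest WT library for each of the 6 genes. Rag2-/- replicate 3 was the lowest of its host for H2-Q6, H2-Q7, H2-T22, H2-T23 and H2-M3, and Rag2-/- replicate 4 was the highest of its host for H2-Q4, H2-Q6, H2-T22, H2-T23 and H2-M3. Rag2-/- replicate 4 also had the lowest neutrophil marker sum of its host, 243 TPM in a range up to 967. The part of neutrophil content in the values of the 6 genes was not tested. Among H2-Q4, H2-Q6, H2-Q7, H2-T22 and H2-M3, Pearson's r of log2(TPM + 1) across the 12 libraries was 0.830 to 0.983, the highest between H2-Q6 and H2-Q7. With the mean of each host taken away, it was 0.721 to 0.956. H2-T23 stood apart, with r from 0.140 (with H2-Q6) to 0.543 (with H2-T22), and from 0.233 to 0.664 within hosts. These are descriptions over 12 libraries that share host, depth and, for the paralogs, reads.

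**Figure D4:**
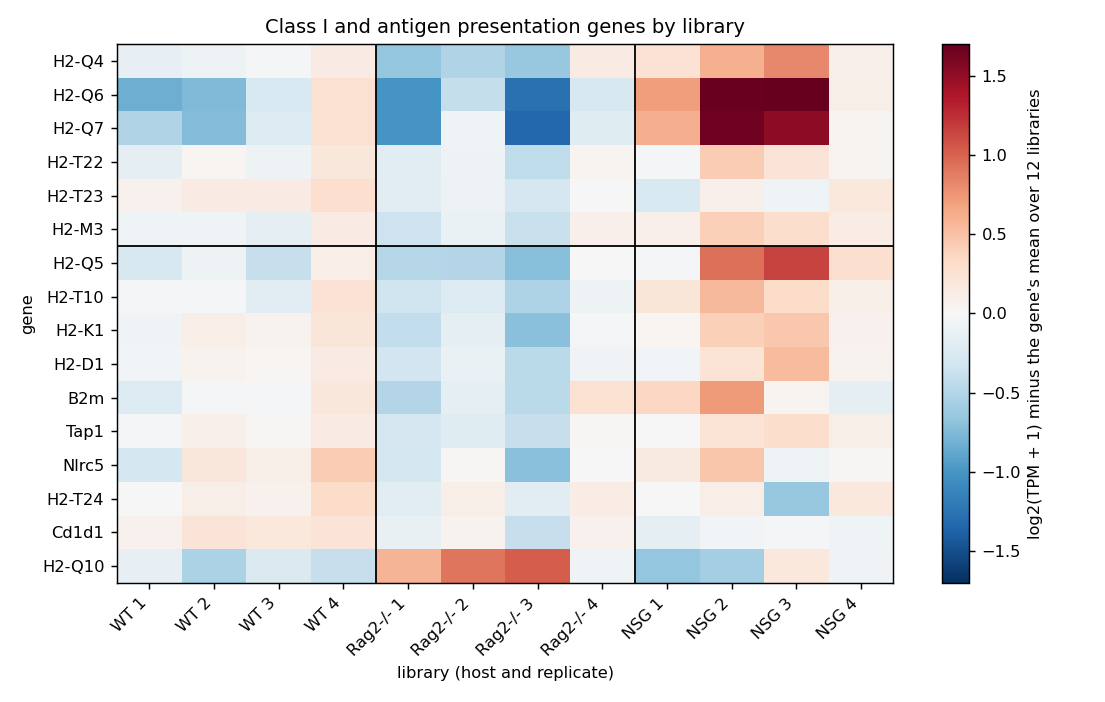
Log2(TPM + 1) of each gene (rows) in each library (columns, by host and replicate) minus that gene's mean over the 12 libraries; the 6 genes are above the black line. The Q members are red in NSG replicates 2 and 3 and mostly blue in Rag2-/- replicates 1 and 3, H2-T23 is pale throughout, and H2-Q10 is red in Rag2-/- replicates 1 to 3.

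Of the tested genes outside the 6, H2-T10 (r = 0.902) and H2-Q5 (r = 0.896) were the most like H2-Q7 over the 12 libraries, followed by Fads1 (0.857), a fatty acid desaturase, H2-K1 (0.849) and Edn3 (0.843). H2-T10 encodes a close relative of the H2-T22 molecule, and H2-Q5 is annotated as a polymorphic pseudogene. H2-Q5 shares 11.4% of its 100-base stretches with H2-Q7. The 5 genes most like H2-T23 were Nlgn2 (0.963), S1pr2 (0.943), Plppr3 (0.942), Otos (0.923) and Hdac8 (0.916), and no class I or antigen presentation gene was among them. The highest r with H2-T23 in the antigen presentation list was 0.782, for Tap2, and r with H2-K1 was 0.589. Of these genes, Otos was called lower in Rag2-/- than in WT cells, at 9.87 ± 1.73 against 16.8 ± 2.71 TPM (log2 fold change −0.72, SE 0.16, adjusted p = 0.0376 in limma). Otos was picked for its likeness to H2-T23, whose Rag2-/- libraries all lay below the WT libraries. Nothing is therefore read from its call, and among all 15026 genes tested 49 were called lower in that comparison.

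A further 29 class I genes outside the 6 had a row, of which 11 were listed at 0 in all 12 libraries, 8 were above 0 with a mean under 1 TPM and 10 were tested. In limma 0 of these 10 were called in each comparison, and 5, 5 and 3 had an unadjusted p under 0.05. Among all 15026 genes tested, 221, 32 and 0 were called, and 3146, 1888 and 1377 had such a p. The median log2 fold changes of the 10 genes were −0.11, −0.04 and 0.01 for Rag2-/- against WT, Rag2-/- against NSG and NSG against WT. H2-Q10, a class I gene whose product is secreted and is best known from liver, went the other way from the members. It was at 53.7, 40.5, 49.9 and 45.2 TPM in WT, at 89.6, 113, 122 and 56.7 TPM in Rag2-/- and at 37.2, 39.6, 67.6 and 57.04 TPM in NSG libraries. All Rag2-/- libraries lay above all WT libraries, but Rag2-/- replicate 4 lay below the 2 highest NSG libraries. Of the 10 class I genes, 1 had all Rag2-/- above all WT libraries, as did 10.2% of all genes tested. Against WT, H2-Q10 had a log2 fold change of 0.94 (SE 0.23), which narrowly missed the threshold with a limma adjusted p of 0.0519. Against NSG it had 0.89 (SE 0.23) with an adjusted p of 0.136. Over the alternatives the adjusted p ranged from 0.0122 to 0.155 against WT and from 0.026 to 0.369 against NSG, and both lowest values came without Rag2-/- replicate 4. That library also had the lowest neutrophil marker sum of its host, 243 TPM, whose part in the H2-Q10 values was not tested. Shared reads can touch H2-Q10 too. Other genes held 19.1% of its stretches of 50 bases, and H2-Q7 held 14%.

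H2-Q5 and H2-T10 resembled the members. H2-Q5 was at 27.7 ± 4.49 TPM in WT, 23.1 ± 5.32 in Rag2-/- and 49.3 ± 18.5 in NSG libraries. For Rag2-/- against NSG this was −1.01 on the log2 scale (SE 0.24, limma adjusted p = 0.102). H2-T10 was at 16.4 ± 2.21, 13.2 ± 1.81 and 20.2 ± 2.897 TPM, and its log2 fold change of −0.59 (SE 0.13, adjusted p = 0.0796) in the same comparison came without overlap of the libraries. Among all genes tested, 2.25% had all Rag2-/- libraries below all NSG libraries. Without Rag2-/- replicate 4, H2-T10 passed (adjusted p = 0.0495), and over the alternatives its adjusted p ranged up to 0.255. Cd1d1 and Cd1d2, which present lipids to NKT cells and lie outside the MHC, had log2 fold changes of −0.27 (SE 0.09, adjusted p = 0.117) and −0.52 (SE 0.16, adjusted p = 0.0934) for Rag2-/- against WT. Cd1d2 passed with the 2 hosts alone (adjusted p = 0.0321 in limma) and without NSG replicate 2 (adjusted p = 0.049), and over the alternatives its adjusted p ranged up to 0.234. Fcgrt, the neonatal Fc receptor, had 0.57 (SE 0.25, adjusted p = 0.223). H2-T24, H2-T-ps, Hfe, which takes part in iron regulation, and Mr1, which presents vitamin B metabolites, had log2 fold changes between −0.21 and 0.24 in all 3 comparisons.

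**Figure D5:**
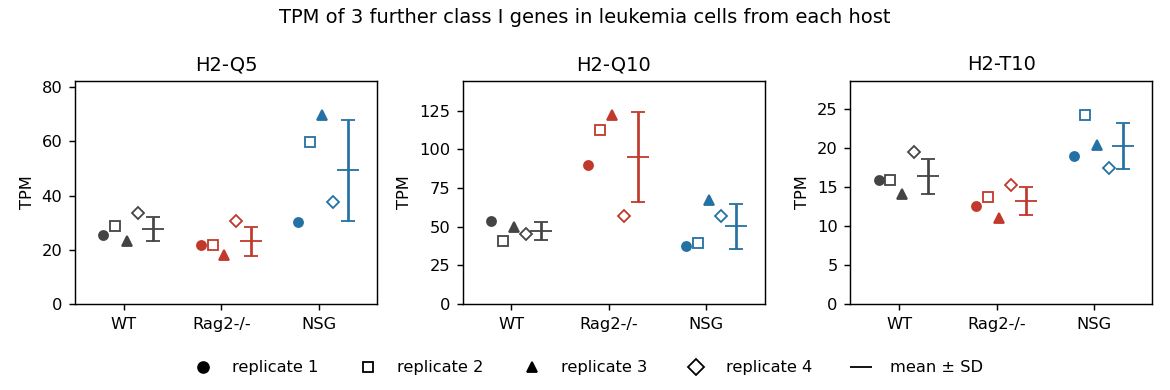
TPM of H2-Q5, H2-Q10 and H2-T10 (vertical axes, each from 0) in the 12 libraries by host, drawn as for the 6 genes, with the mean and SD beside the points. The 4 Rag2-/- libraries of H2-Q10 lie at 56.7 to 122 TPM and those of WT at 40.5 to 53.7, while H2-Q5 and H2-T10 are highest on average in NSG libraries.

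Genes of the general antigen presentation machinery, 25 in number, were examined as a list written with earlier results known. In limma 0 of 25 were called in each comparison, and 14, 10 and 1 had an unadjusted p under 0.05. For Rag2-/- against WT, 20 of 25 log2 fold changes were below 0, with a median of −0.19. For Rag2-/- against NSG 18 were below 0 (median −0.15), and for NSG against WT 10 were (median 0.02). Among all 15026 genes tested in limma, 221, 32 and 0 were called, and 3146, 1888 and 1377 had an unadjusted p under 0.05. Of these 15026 genes, 8185, 8029 and 7732 had log2 fold changes above 0. With no limit on the fold change, Tapbpl (adjusted p = 0.0388) and Tap2 (adjusted p = 0.0477) were lower in Rag2-/- than in WT cells and Psme2 (adjusted p = 0.0462) lower than in NSG cells. These 3 were named after their values were seen. B2m, the light chain that most class I molecules need, was at 4067 ± 507 TPM in WT, 3638 ± 939 in Rag2-/- and 5005 ± 1363 in NSG libraries. Its log2 fold changes were −0.19 (SE 0.20, adjusted p = 0.634) and −0.46 (SE 0.20, adjusted p = 0.364) for Rag2-/- against WT and NSG. Those of H2-K1 were −0.40 and −0.57 (SE 0.14 each), and those of H2-D1 −0.29 and −0.43 (SE 0.12 each). Tap1, a subunit of the peptide transporter, had −0.27 and −0.37 (SE 0.09 each), and Nlrc5, an activator of class I transcription, −0.35 and −0.39 (SE 0.19 each). None of these passed (adjusted p from 0.104 to 0.425 in limma). They are RNA levels. By flow cytometry in male mice, the study reported more surface class I (H2-Kb) on cells from Rag2-/- than from WT hosts. For Rag2-/- against NSG, the 25 log2 fold changes ran from −0.57 to 0.18. Those of H2-Q6, H2-Q7 and H2-Q4 ran from −1.86 to −0.85 (SE 0.40, 0.38 and 0.18). H2-Q5, outside the 6 genes, was at −1.01 (SE 0.24). The 6 genes were chosen on these values, so nothing is read from their place beside the 25.

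Of the 138 genes within 250 kb of a member, class I genes left out, 49 were tested. In Rag2-/- against WT 1 was called, Gm10074, and in the other comparisons 0, while 8, 12 and 3 had an unadjusted p under 0.05 in limma. Among all 15026 genes tested, 221, 32 and 0 were called, and 3146, 1888 and 1377 had such a p. Gm10074 (ENSMUSG00000101932) is a processed pseudogene at 36226023 to 36226271 on chromosome 17. It was at 59.8 ± 1.83 TPM in WT and 32.1 ± 9.45 in Rag2-/- libraries, a log2 fold change of −0.92 (SE 0.18, adjusted p = 0.0223 in limma). The call was lost without WT replicates 2, 3 or 4 or Rag2-/- replicates 2 or 3, when every gene above 0 was tested, and with replicate numbers as a block (0 neighbours called in each of these). The neighbours' median log2 fold changes were −0.06, −0.05 and 0.02, near those of all genes.

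NSG mice differ from the other hosts in strain as well as in the cells they lack: they are of NOD origin, with another MHC haplotype, while the other 2 hosts are C57BL/6. Reads of any NOD host cell in the sort would be aligned to the C57BL/6 sequence. In the NSG libraries the strain and the missing cells cannot be told apart, and which alleles the H2-Q reads carried was not analysed here. The macrophage and dendritic cell marker sum was 53.8 to 110 TPM in NSG and 88.2 to 93.8 in WT libraries. Adgre1, its largest part, was at 75.7, 50.4, 26.9 and 61.1 TPM in NSG replicates 1 to 4, and at 56.4 to 59.2 TPM in WT. Other markers of the list did not all follow it. In NSG replicates 1 to 4, Vcam1 was at 32.5, 26.1, 23.5 and 32.9 TPM. C1qa was at 0.346, 2.90, 1.02 and 1.58 TPM there, and C1qb at 1.16, 1.23, 1.79 and 2.08 TPM. Siglech and Xcr1 stayed at or under 0.527 TPM. H2-Q6 was at 41.0, 80.9, 104 and 26.6 TPM in the same libraries. The part of such cells in the H2-Q6 and H2-Q7 values was not tested.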

How the data were processed

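The authors sorted GFP+ leukemia cells, selected mRNA with poly-T beads, aligned paired reads to mm10 with HISAT2 on Galaxy, counted reads per gene and deposited TPM for 12 libraries. The counting tool, annotation and gene lengths are not given in the sources used here. The members and lists were chosen with earlier results of these data known. The 15026 genes whose mean reached 1 TPM were fitted on log2(TPM + 1) over all libraries by limma (version 3.58.1, R 4.3.3, trend in eBayes). Benjamini-Hochberg adjustment was done per comparison, and calls needed an adjusted p under 0.05 together with a log2 fold change beyond 0.5. Fold changes on this scale understate those of low genes. p-values measure the spread between these libraries, whose separate animals are given only as biological replicates. Genes to be named were the 6 members, tested class I genes, H2-K1, H2-D1, B2m, Tap1, Nlrc5, called presentation genes and neighbours, and the 5 genes most like H2-Q7 and H2-T23. Coding and promoter sequence came from GENCODE M21 and RefSeq (Python 3.11.15, Biopython 1.88). Coding bases were compared in place of the proteins first planned. Of 55401 genes, 55141 had a symbol. Depth was estimated from low values, of which 63.4% to 66.5% fell within 0.05 of a whole read. The fit was tested on simulated data. Alternatives were another pseudocount, filters, normalizations, no trend, hosts in pairs, a replicate block and each library left out.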

Additional observations from a re-analysis of the deposited data

Results flagged for a closer look

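Within the 4 libraries of a host, a value was flagged when its gap to the nearest other library, on log2(TPM + 1), took up a larger share of the whole range than Dixon's critical value for 4 libraries. Over 49 genes and 3 hosts, 147 groups were examined and 8 were flagged, where chance flags about 1 in 20. None of the 8 was a value of H2-Q4, H2-Q6, H2-Q7, H2-T22, H2-T23 or H2-M3. WT replicate 2 was high in 3 presentation genes, Psme2 at 196 TPM (gap 0.974 of the range), Tap2 at 200.4 TPM (0.887) and Psmb10 at 271 TPM (0.843). Cd1d2 was at 6.96 TPM in Rag2-/- replicate 1, above the other 3 (0.891), and Otos at 7.29 TPM in Rag2-/- replicate 3, below them (0.904). Tapbp was at 147 TPM in NSG replicate 2, below the other 3 (0.851). The pseudogene Gm10074 was low in WT replicate 1, at 57.1 TPM (0.847), and in NSG replicate 1, at 39.0 TPM (0.849).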

How the results depend on the processing

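The log2 fold changes of the 6 genes and their medians kept their sign under all settings run. With each library left out, the medians ranged from −0.42 to −0.14 (Rag2-/- against WT, −0.32 with all libraries), −0.77 to −0.56 (Rag2-/- against NSG) and 0.29 to 0.44 (NSG against WT). In Rag2-/- against WT the median came to −0.14 both without WT replicate 4 and without Rag2-/- replicate 3. In Rag2-/- against WT, testing every gene above 0 gave 114 called genes and 0 called neighbours, the 2 hosts alone gave 355 genes and 2 other class I genes, and no limit on the fold change gave 420 genes and 2 presentation genes. Requiring 1 TPM in each of the libraries left 1 other class I gene called. In Rag2-/- against NSG, the count of called genes was 14 with a pseudocount of 0.1, 7 with every gene above 0, 19 after quantile normalization, 11 after median-ratio scaling, 18 without a trend and 6 with the 2 hosts alone, and without a limit on the fold change 1 presentation gene passed. In NSG against WT, 2 genes were called with every gene above 0. Leaving out 1 library at a time gave between 48 called genes (WT replicate 2 left out) and 327 (NSG replicate 3 left out) in Rag2-/- against WT, between 4 (Rag2-/- replicate 3 left out) and 90 (Rag2-/- replicate 4 left out) in Rag2-/- against NSG, and 0 to 2 in NSG against WT. The count in Rag2-/- against WT was also lower without WT replicate 3 (121), WT replicate 4 (140), Rag2-/- replicate 2 (53) or Rag2-/- replicate 3 (51). The members called against NSG ranged from 0 to 1, other class I genes from 0 to 1 against WT and 0 to 2 against NSG, and neighbours from 0 to 2 against WT. The cause was not tested. Libraries of the same number did not deviate together over all genes (r from −0.091 to 0.032), and those of different numbers had r from −0.12 to 0.128. A pairing that touches few genes would not show in these values. With the replicate block, 165 genes and 0 neighbours were called in Rag2-/- against WT and 5 genes in Rag2-/- against NSG. The file holds TPM and no counts, so depth is an estimate without an interval. How reads shared between paralogs were assigned limits H2-T22 most and H2-Q4, H2-Q6, H2-Q7 and H2-Q10 as well.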
